A study of Mus musculus with 108 samples.

Results

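The Meis1 and Meis2 loci were followed through an enhancer reporter screen in mouse cells. A locus was taken as the gene body with 100 kb on each side in GENCODE, which made 2 of 21728 protein-coding loci on chromosomes 1 to 19 and X. Overlapping reporter fragments of the same kind were merged into sites, and the 2 loci held 48 of 76748 merged sites. The members are named genes whose fragments were taken by position and not by a measured value. Earlier results of these data were known when they were chosen.

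The question put by the screen was which open chromatin sequences can drive a reporter as blood cells are specified. DNA released by the Tn5 transposase from open chromatin of the 5 stages named below was cloned into pDONR and moved into pSKB. The latter is a reporter with a minimal promoter and a yellow fluorescent protein (YFP). It was then placed at the Hprt locus of HM-1 mouse embryonic stem cells. Cells were sorted as embryonic stem cells (ES), FLK1+ hemangioblasts (HB), early hemogenic endothelium that was KIT+ TIE2+ CD41- (HE1), later hemogenic endothelium that was KIT+ TIE2+ CD41+ (HE2), or hematopoietic progenitors that were KIT+ TIE2- CD41+ (HP). YFP gates were Negative, Low, Medium and High in replicates 1 to 4 of each stage, with Medium and High taken as a single gate in replicate 5, which gave 95 sorted libraries. Beside them stood 5 pDONR lists and 5 pSKB lists, labelled with 1 stage each, and 3 PCR controls from HM-1 cells that carried no library. All sorted cells thus carried 1 cell line background and 1 integration site, and the only treatment the labels name is differentiation in culture, for the stages from HB to HP. The files hold DNA fragments and no expression, so the labelled cell types could not be checked against marker genes.

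MEIS1 and MEIS2 are homeodomain proteins of the TALE class. They bind DNA with PBX partners and with HOX proteins, and this raises the selectivity of HOX binding. MEIS1 is known for its part in hematopoietic stem and progenitor cells and in leukemia with high HOX activity, whereas MEIS2 is best known from limb, brain, heart and neural crest development. Genes of this kind are often surrounded by long stretches of noncoding DNA with many enhancers.

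A positive set is the union of a replicate's Low, Medium, High and Medium/High lists at a stage, so there were 25 positive sets and 25 Negative lists. Each fragment counts once per set, because the sorted lists carry no read numbers. The lists were very uneven in length. Libraries of replicates 1 and 2 listed between 15627 and 131091 fragments, and libraries of replicates 3 to 5 between 504 and 20729, so that replicates 1 and 2 gave 91.1% of the Meis1 listings and 95% of those of Meis2. Pairs of HE1 libraries also shared fragments across gates and replicates. Low of replicate 4 and Negative of replicate 3 shared 83.0% of the shorter list, and Medium of replicate 2 and Negative of replicate 1 shared 78.5%. In the latter pair, 25 fragments of the 2 loci were common to the 33 of Medium and the 37 of Negative. Locus comparisons of positive against Negative cells in HE1, and of HE1 with adjacent stages, were therefore also fitted without these 4 libraries. High against Low gates in HE1 were not.

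The sequences of 6 sites are shown because the results below turn on them. The +48.6 kb and +93.9 kb sites gained most in the plasmid lists towards HP. The +44.9 kb site lies nearest to 45 kb from the Meis1 start on the gene side. The study cloned a Meis1 element on its own and gives its place as 45 kb with a minus sign. Taking it on the gene side was an assumption, and no element that the study lists as primed overlaps the +44.9 kb site. The -55.5 kb site was found in ES, the -1.7 kb site had the most listings, and the +54.6 kb site was the most recurrent distal site of Meis2. Distances are from the principal transcription start to the middle of the site, above 0 on the gene side. Each window is 200 bases of mm10, plus strand, around the median middle of the sorted fragments, and can pass the ends of a short site. Capitals mark, on either strand, AGATAA (bound by GATA factors), AGGAAG (ETS), TGTGGT (RUNX), TGANTCA (AP-1), GGAATG (TEAD), TGACAG (MEIS), TGATTNAT (PBX with HOX) and ATGCAAAT (OCT). No matches overlapped in these 6 windows.
Meis1 +48.6 kb, chr11:18970035-18970234: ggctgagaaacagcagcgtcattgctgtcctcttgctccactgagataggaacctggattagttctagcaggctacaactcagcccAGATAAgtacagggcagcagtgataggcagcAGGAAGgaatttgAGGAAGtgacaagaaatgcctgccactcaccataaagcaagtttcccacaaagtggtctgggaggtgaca
Meis1 +93.9 kb, chr11:18925056-18925255: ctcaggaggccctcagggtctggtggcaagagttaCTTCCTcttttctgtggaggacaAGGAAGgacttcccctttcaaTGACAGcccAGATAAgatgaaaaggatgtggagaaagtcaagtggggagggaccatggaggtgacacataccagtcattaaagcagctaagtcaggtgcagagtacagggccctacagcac
Meis1 +44.9 kb, chr11:18973894-18974093: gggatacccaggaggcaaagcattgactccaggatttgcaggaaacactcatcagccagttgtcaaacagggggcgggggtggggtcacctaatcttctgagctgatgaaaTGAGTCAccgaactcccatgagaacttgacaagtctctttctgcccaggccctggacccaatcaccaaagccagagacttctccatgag
Meis1 -55.5 kb, chr11:19074314-19074513: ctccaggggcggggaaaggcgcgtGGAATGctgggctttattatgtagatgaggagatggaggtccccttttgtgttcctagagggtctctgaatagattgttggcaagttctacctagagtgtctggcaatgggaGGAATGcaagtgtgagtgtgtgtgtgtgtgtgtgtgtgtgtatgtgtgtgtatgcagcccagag
Meis1 -1.7 kb, chr11:19020414-19020613: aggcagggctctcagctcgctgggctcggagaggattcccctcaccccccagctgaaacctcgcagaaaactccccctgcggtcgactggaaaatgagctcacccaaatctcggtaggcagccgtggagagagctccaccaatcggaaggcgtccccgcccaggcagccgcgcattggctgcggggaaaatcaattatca
Meis2 +54.6 kb, chr2:116010425-116010624: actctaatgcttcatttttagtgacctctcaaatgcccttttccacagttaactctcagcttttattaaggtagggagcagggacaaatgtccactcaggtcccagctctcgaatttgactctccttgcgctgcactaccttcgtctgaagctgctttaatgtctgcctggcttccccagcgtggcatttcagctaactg

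The +48.6 kb window held 1 AGATAA and 2 AGGAAG, and the +93.9 kb window held 1 AGATAA, 2 AGGAAG and 1 TGACAG. Over all 76748 sites, a window of this length held AGATAA in 11.0%, AGGAAG in 34.9% and TGACAG in 16%. The +44.9 kb window held TGAGTCA, a form of TGANTCA, which was present in 10.4% of all windows. The -55.5 kb window held GGAATG at 2 places, against 12.4% of all windows with at least 1. None of these letters was found in the -1.7 kb and +54.6 kb windows. Among the 31 Meis1 sites, AGATAA was found in 6 (19.4%), TGANTCA in 7 (22.6%), TGACAG in 6 (19.4%), AGGAAG in 8 (25.8%), GGAATG in 2 (6.45%), ATGCAAAT in 1 (3.23%), and neither TGTGGT nor TGATTNAT in any. In all windows, TGTGGT was found in 16.2%, TGATTNAT in 1.64% and ATGCAAAT in 1.04%. Among the 17 Meis2 sites each of these words was found in at most 2. A match is a run of letters and not a measured binding site.

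Meis1 (ENSMUSG00000020160.18) lies on the minus strand at chr11:18879817-19018985 of mm10, and its window of 339.2 kb holds no other protein-coding gene. The sorted lists held 269 distinct fragments there, of 72 to 595 bp with a median of 199.0 bp, listed 451 times in 58 of 95 libraries. Of these, 246 were distal, more than 1.5 kb from a start, and 23 were promoter fragments. The distal share of 91.4% compares with a median of 26.6% over all loci. Distal fragments lay at 72.5 per 100 kb, against a median of 18.1, which placed Meis1 at the 86.9th percentile of 21728 loci. With promoter fragments included, its density of 79.3 per 100 kb was at the 47.7th percentile. The Meis1 window was thus above most loci for distal fragments and near the middle for all fragments.

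Meis2 (ENSMUSG00000027210.20) lies on the minus strand at chr2:115863064-116065839, and its window of 402.8 kb also touches BC052040. It held 55 distinct fragments, 33 of them distal, listed 101 times in 38 libraries. Its distal density of 8.19 per 100 kb was at the 33.3rd percentile and its density of all fragments, 13.7 per 100 kb, at the 19.6th. Meis2 was therefore the sparser of the 2 loci by either measure. Neither measure was scaled to the fragments of the chromosome.

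Fragments of Meis1 were recovered from positive cells at every stage. In ES, the positive sets of replicates 1 to 5 held 1.40, 2.03, 1.71, 1.94 and 0 Meis1 fragments per 10000 listed fragments. In HB they held 1.97, 2.38, 3.21, 1.70 and 0. In HE1 they held 2.05, 2.33, 2.59, 0 and 0. Replicates 1 and 2, the long lists, thus lay close together at these stages, and the zeros came from short lists, where 0 of 2186 fragments in ES still allows up to 13.7 per 10000. In HE2 the values were 1.97, 1.77, 2.40, 0 and 6.44. In HP they were 2.43, 1.5, 4.33, 3.57 and 0. The highest of these, 6.44, stood for 1 fragment in a list of 1553. Summed over replicates 1 and 2, Meis1 was at 1.72 per 10000 at ES (95% Clopper-Pearson interval 1.20 to 2.39), 2.17 at HB (1.63 to 2.84), 2.18 at HE1 (1.76 to 2.67), 1.89 at HE2 (1.45 to 2.42) and 2.19 at HP (1.66 to 2.84). Each interval overlapped all the others. Intervals here cover counting error only, since PCR without molecular identifiers does not yield independent molecules.

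Negative lists also held Meis1 fragments at every stage. In ES they gave 1.71, 0.68, 1.07, 0 and 0 per 10000 in replicates 1 to 5, and in HB 1.92, 2.38, 7.80, 5.76 and 0. In HE1 they gave 2.14, 0.984, 1.46, 6.06 and 8.55, in HE2 2.00, 1.89, 0, 0 and 0, and in HP 1.67, 0.854, 0, 3.79 and 0. The range of the Negative values overlapped that of the positive values at all 5 stages. Of 269 distinct fragments, 240 were seen in positive cells and 85 in Negative cells, and 56 were seen in both. Part of this overlap lies in HE1, where Medium of replicate 2 and Negative of replicate 1 had 25 fragments of the 2 loci in common.

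**Figure D1:**
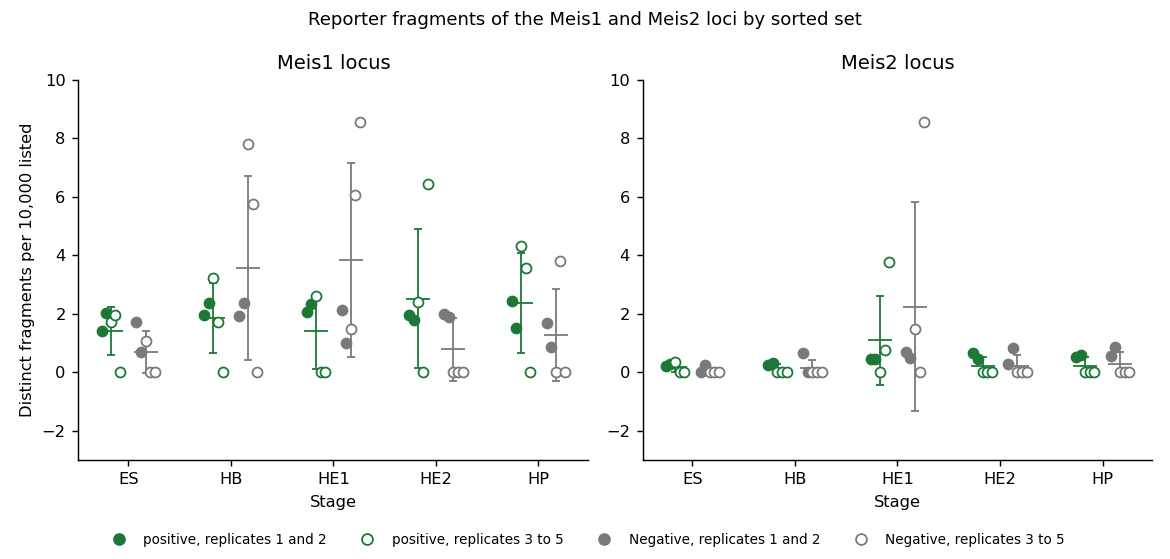
Distinct fragments per 10000 listed fragments (vertical axis) in the positive sets (green) and Negative lists (grey) of each stage (horizontal axis), for the Meis1 and Meis2 loci. Filled points are replicates 1 and 2, open points replicates 3 to 5, and horizontal marks with bars give the mean and SD of 5 sets. The filled Meis1 points of positive sets lie between 1.40 and 2.43 at every stage, and the widest bars come from open points, such as 8.55 in HE1 Negative cells.

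Positive and Negative cells were compared within each stage by limma on log2 of fragments per 10000 with 1 added, fitted over all loci. For Meis1, the difference (positive minus Negative) was 0.52 ± 0.55 (SE) for ES, -0.47 ± 0.75 for HB, -0.97 ± 0.77 for HE1, 0.92 ± 0.78 for HE2 and 0.63 ± 0.78 for HP. The medians over all loci tested were 0.17, 0.16, 0.13, 0.25 and 0.08. None of these Meis1 differences passed an adjusted p of 0.05 (limma, adjusted p from 0.992 to 1.00). Of all loci, limma called 0% in each of these comparisons, and edgeR's quasi-likelihood test on fragment numbers 0.00567% in HE2 and 0% elsewhere. An unadjusted limma p below 0.05 was reached by 2.23% of loci at ES, 2.53% at HB, 1.08% at HE1, 1.39% at HE2 and 1.93% at HP, and by neither member. Without the 4 HE1 libraries the HE1 difference was -1.31 (adjusted p = 0.85). With replicates 1 and 2 alone, an alternative chosen after seeing the data, the differences were 0.34, 0.01, 0.35, -0.04 and 0.40. The sign turned in HB, HE1 and HE2, so the short lists set the direction at these stages.

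From stage to stage, the positive Meis1 sets differed by 0.19 ± 0.59 between ES and HB, -0.33 ± 0.62 between HB and HE1, 0.50 ± 0.71 between HE1 and HE2 and 0.00 ± 0.76 between HE2 and HP (later minus earlier stage) on the same log2 scale (limma, adjusted p from 0.996 to 1.00). Again 0% of all loci were called by limma. By edgeR, 3.00% of 18375 loci were called between ES and HB, 2.79% of 18439 between HB and HE1, 0% between HE1 and HE2 and 2.20% of 18319 between HE2 and HP, and neither member was among them. At an unadjusted p below 0.05, limma picked 3.07%, 4.19%, 2.34% and 2.73% of loci in the same order. Without the 4 HE1 libraries, Meis1 differed by -0.32 between HB and HE1 and by 0.50 between HE1 and HE2. Without replicate 5, the difference between HE1 and HE2 was -0.09.

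The strength of the YFP signal gave no clear separation either. Meis1 in high sets (Medium, High and Medium/High together) against Low lists differed by 0.53 ± 0.65 for ES, 0.97 ± 0.69 for HB, 0.58 ± 0.70 for HE1, -0.28 ± 0.84 for HE2 and -0.11 ± 0.90 for HP (limma, adjusted p from 0.988 to 1.00, with 0% of loci called). The largest of these was that of HB, where the high sets held 2.02, 2.78, 3.31, 2.41 and 0 fragments per 10000 and the Low lists 1.69, 1.19, 0, 0 and 0. In replicates 1 to 4, every HB high set was thus above every HB Low list, whereas both held 0 in replicate 5. The Low zeros of replicates 3 and 4 came from lists of 1240 and 2786 fragments, too short for a 0 to show a low level. The sign in HE2 and HP rested on single replicates, since the difference was 0.49 in HE2 without replicate 5 and 0.62 in HP without replicate 4. By edgeR, 0.00565% of loci were called at HB, 0.017% at HE1, 0.0122% at HP and 0% at ES and HE2, with no member among them. At an unadjusted p below 0.05, limma picked 1.61% of loci at ES, 2.00% at HB, 1.64% at HE1, 0.599% at HE2 and 1.21% at HP, again without the members.

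Gate by gate in replicates 1 and 2 summed, Meis1 in ES stood at 1.04 per 10000 in Negative, 1.91 in Low, 1.82 in Medium and 1.73 in High lists. In HB the same gates gave 2.14, 1.45, 2.52 and 2.09, and in HE1 1.86, 1.90, 2.26 and 2.35. In HE1, Negative of replicate 1 gave 28 of 32 Negative fragments and Medium of replicate 2 gave 27 of 41 Medium fragments. This pair of libraries shared 78.5% of the shorter list, and the gates were not compared without it. No shared order of the gates was seen across stages, for in HE2 they gave 1.94, 1.68, 1.86 and 1.85, and in HP 1.26, 2.59, 2.72 and 1.61.

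The 451 Meis1 listings fell into 31 merged sites, 29 distal and 2 promoter. A positive fragment was found at 29 sites and a Negative one as well at 21 of them. Of the sites, 17 lay inside the gene, 16 of these in introns. Positive fragments were confined to 1 stage at 13 sites and reached 4 or 5 stages at 7. Over all distal sites, 44.6% had positive fragments at 1 stage and 18.8% at 4 or 5. Promoter sites as a whole were broader, with 15.1% at 1 stage and 68.2% at 4 or 5.

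**Figure D2:**
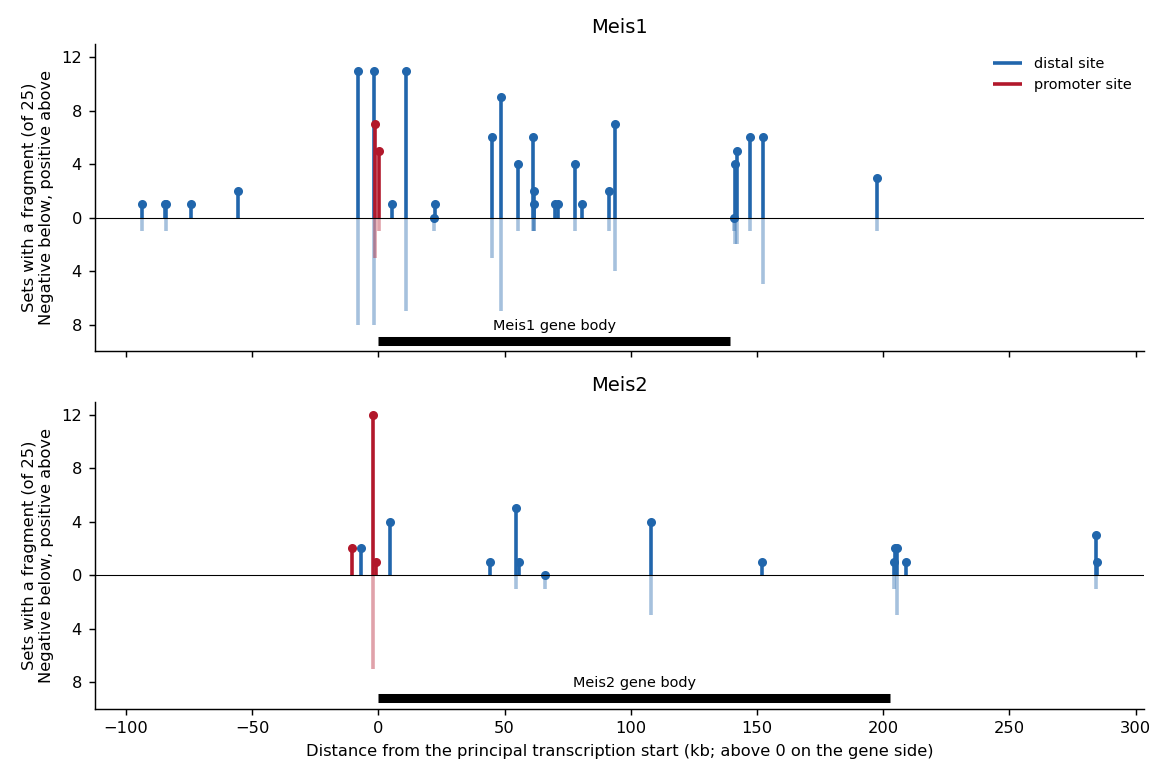
Number of sets with a fragment at each merged site of the Meis1 (top) and Meis2 (bottom) loci, of 25 positive sets above 0 and of 25 Negative lists below 0, against the distance from the principal transcription start in kb. Blue lines are distal sites, red lines promoter sites and black bars the gene bodies. The 3 tallest Meis1 lines, 11 positive sets each, lie within 11 kb of the start, and the tallest Meis2 line, 12 sets, lies 2.1 kb upstream of it.

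The site that holds the Meis1 start, chr11:19018575-19019259, covers exonic sequence including untranslated sequence. Its 13 fragments were all seen in high gates, 1 of them also in Low. Positive fragments came from HB, with 3, 2, 1, 0 and 0 in replicates 1 to 5, and from HP, with 8, 3, 0, 0 and 0. Negative cells gave 1 fragment, in HB. No sorted library of ES, HE1 or HE2 listed any. The other promoter site, 1.3 kb upstream, chr11:19020076-19020542, held 10 fragments with positive ones at every stage but HP.

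The 3 most recurrent distal sites of Meis1 all flank the start, and each was positive in 11 of 25 sets. At -1.7 kb, chr11:19020374-19020964, 37 fragments were listed 79 times. It overlaps the promoter site just named, since distal and promoter fragments were merged separately. Its positive sets held 5, 5, 2, 1 and 0 fragments in ES, 4, 7, 3, 0 and 0 in HB, 10, 5, 0, 0 and 0 in HE1, and 7, 9, 0, 0 and 0 in HE2. No library of HP listed it. Negative cells gave between 0 and 4 fragments per list.

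At -8.2 kb, chr11:19026684-19027675, 29 fragments were listed 58 times, with positive fragments at all 5 stages. Replicates 1 and 2 held 3 and 6 in ES, 5 and 5 in HB, 4 and 4 in HE1, 2 and 3 in HE2, and 7 and 1 in HP. At +10.9 kb, chr11:19007738-19008406, in an intron, 25 fragments were listed 39 times. Replicates 1 and 2 held 2 and 4 in ES, 2 and 4 in HB, 4 and 2 in HE1, 3 and 3 in HE2, and 4 and 2 in HP. These 2 were the only Meis1 sites positive at all 5 stages. Each was also found in Negative cells, in 8 and 7 lists.

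Several intronic sites further into the gene were listed from HB on but in no library of ES. They were also rare among the cloned fragments of ES. Of 5660096 fragments in pDONR of ES, 2 lay at the +48.6 kb site, 10 at +44.9 kb and 3 at +93.9 kb. A 0 in sorted ES cells thus does not show a lack of reporter activity. The +48.6 kb site, chr11:18969931-18970725, which was picked after its values were seen, held 36 fragments in 59 listings. Its positive sets gave 0 in ES in all 5 replicates, 2, 4, 0, 0 and 0 in HB, 8, 6, 0, 0 and 0 in HE1, 10, 3, 1, 0 and 1 in HE2, and 6, 0, 0, 0 and 0 in HP. Negative lists of HB held 3, 4, 1, 0 and 0, so the site was listed 8 times there against 6 times in positive sets. The intronic +44.9 kb site, chr11:18973836-18974298, held 13 fragments, with positive ones in HB, HE1 and HE2 in replicates 1 and 2. It gave 2 and 1 in HB, 1 and 4 in HE1 and 4 and 1 in HE2, and no library of ES or HP listed it. Negative lists of these replicates held 1 and 1 in HB, 3 and 0 in HE1 and none in HE2. Per 1000000 listed fragments this is 22.5 against 12.3 in positive sets of HB and 17.5 against 11.7 in HE1, with Negative cells the higher ones. In HE2 only positive sets held the site. These values rest on few fragments, and no interval was set on them. The HE1 Negative fragments came from replicate 1, whose list shared 78.5% of Medium of replicate 2.

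Elements that the study lists as primed for Meis1 overlap 2 sites, and the list was drawn up on these samples. The intronic +93.9 kb site, chr11:18924726-18925372, held 14 fragments. Its positive sets of replicates 1 and 2 gave 2 and 1 in HB, 6 and 3 in HE1, 1 and 1 in HE2 and 4 and 0 in HP, and none in ES. Negative lists of the same replicates gave 1 and 1 in HB, 2 and 0 in HE1, 1 and 0 in HE2 and none in HP. Per 1000000 listed, Negative cells were above positive cells in HB (22.5 against 12.3) and HE2 (13.9 against 6.01) and below them in HE1 (11.6 against 21.1). These values too rest on few fragments, and the HE1 Negative ones came from replicate 1. The +147.4 kb site, chr11:18871150-18871981, lies past the 3' end in the long noncoding gene 8430419K02Rik and held 12 fragments. Its positive sets gave 0, 1, 0, 0 and 0 in HB, 1, 1, 0, 0 and 0 in HE1, 0, 0, 2, 0 and 0 in HE2 and 8, 1, 0, 0 and 0 in HP. Replicate 1 of HP thus held 8 of its 12 fragments, and the Negative lists held 1, in HB.

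**Figure D3:**
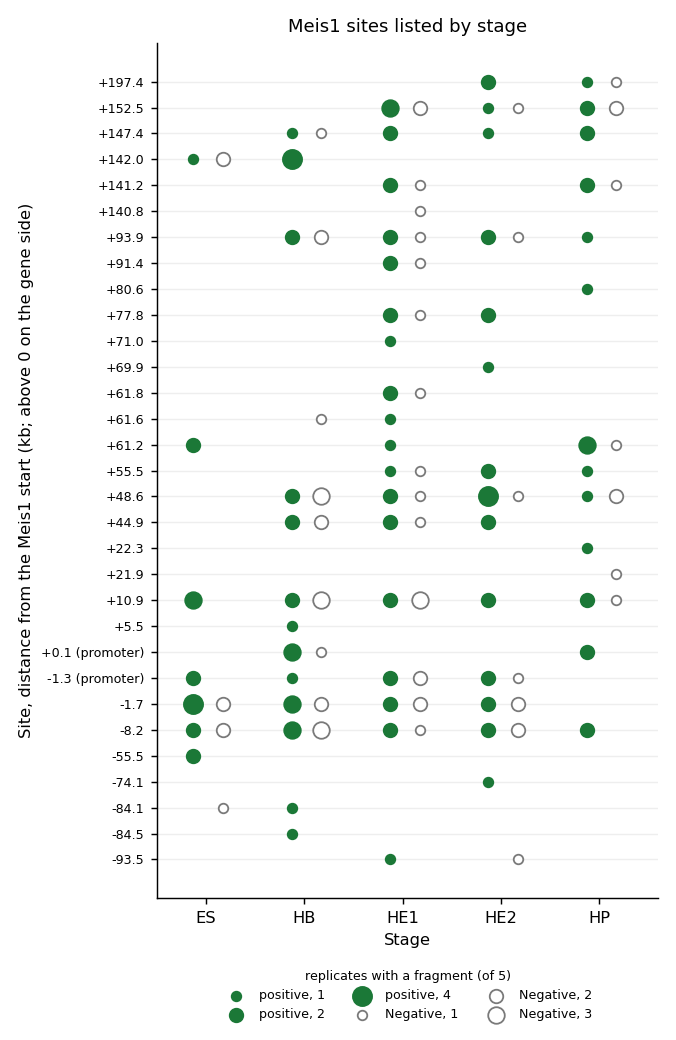
The 31 Meis1 sites (vertical axis, distance from the start in kb) against stage (horizontal axis). Green dots are positive sets and open grey dots Negative lists, with an area proportional to the number of replicates, of 5, that held a fragment. The +10.9 kb and -8.2 kb sites have green dots in all 5 columns, and the -55.5 kb site has one in ES alone. The +48.6 kb, +44.9 kb and +93.9 kb sites have none in ES, where pDONR held few of their fragments.

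Single sites were tested as the loci were. Of the 31 Meis1 sites, 12 had a fragment in enough sets for at least 1 of 9 comparisons (positive against Negative per stage, and adjacent stages), and none of 42 tests passed (limma, adjusted p from 0.991 to 1.00). Over all merged sites, limma called 1 of 17944 from ES to HB (0.00557%) and 0% in each of the other 8 comparisons. The lowest unadjusted values, 0.0426 for positive against Negative in HB and 0.038 for HB to HE1, belonged to the +142.0 kb site, chr11:18876564-18877400, past the 3' end of the gene and also picked after its values were seen. Its positive sets held 3, 2, 4, 1 and 0 fragments in HB and its Negative lists 0 in all 5, while no HE1 set held any. In ES, its positive sets held 0, 4, 0, 0 and 0 and its Negative lists 1, 1, 0, 0 and 0, which in replicates 1 and 2 is 19.7 per 1000000 in positive against 29.6 in Negative cells. At that unadjusted threshold limma picked 1.41% of all sites in the first comparison and 2.02% in the second. The same share was 1.61% for positive against Negative cells at ES, 0.163% at HE1, 0.365% at HE2 and 0.606% at HP, and 2.87%, 0.51% and 0.894% for the steps ES to HB, HE1 to HE2 and HE2 to HP.

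The number of Meis1 sites with a positive fragment was 7 at ES, 13 at HB, 18 at HE1, 14 at HE2 and 13 at HP. The ES sites lay at +142.0, +61.2, +10.9, -1.3, -1.7, -8.2 and -55.5 kb. Longer lists name more sites, and over all 76748 sites the share with a positive fragment was 39.3%, 46.0%, 57.5%, 55.4% and 49.6% at the same stages. For Meis1 the shares were 22.6%, 41.9%, 58.1%, 45.2% and 41.9%. Promoter sites raise the shares over all sites. Among distal sites alone, 20.7% of the 29 Meis1 sites had a positive fragment in ES, 37.9% in HB, 58.6% in HE1, 44.8% for HE2 and 41.4% for HP, against 28.8%, 36.2%, 51.2%, 48.5% and 41.3% of all distal sites.

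The plasmid lists show what was cloned before any sorting. Across the whole Meis1 window they held 1.80 distinct fragments per 10000 in pDONR of ES, 2.03 at HB, 2.05 at HE1, 2.33 at HE2 and 2.17 at HP, and between 1.73 and 2.25 in pSKB. Chromosome 11 held between 10.6% and 11.5% of the plasmid fragments, and per 10000 fragments of that chromosome Meis1 stood at 15.7 to 21.2. Limited to the merged sites, which makes them more like the peak-filtered sorted lists, pDONR held 2.19 per 10000 at ES (2.00 to 2.39), 2.47 at HB, 2.23 at HE1, 2.71 at HE2 (2.53 to 2.90) and 2.67 at HP. The summed positive values of replicates 1 and 2 were below these pDONR values at every stage, and the intervals overlapped in all but HE2. In pSKB, the reporter library itself, the values were 1.99, 2.38, 1.93, 2.55 (2.23 to 2.91) and 2.78 in stage order, so that positive cells were above pSKB in HE1 and the intervals overlapped at all 5 stages. The HM-1 controls held 0, 2 and 0 Meis1 fragments.

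**Figure D4:**
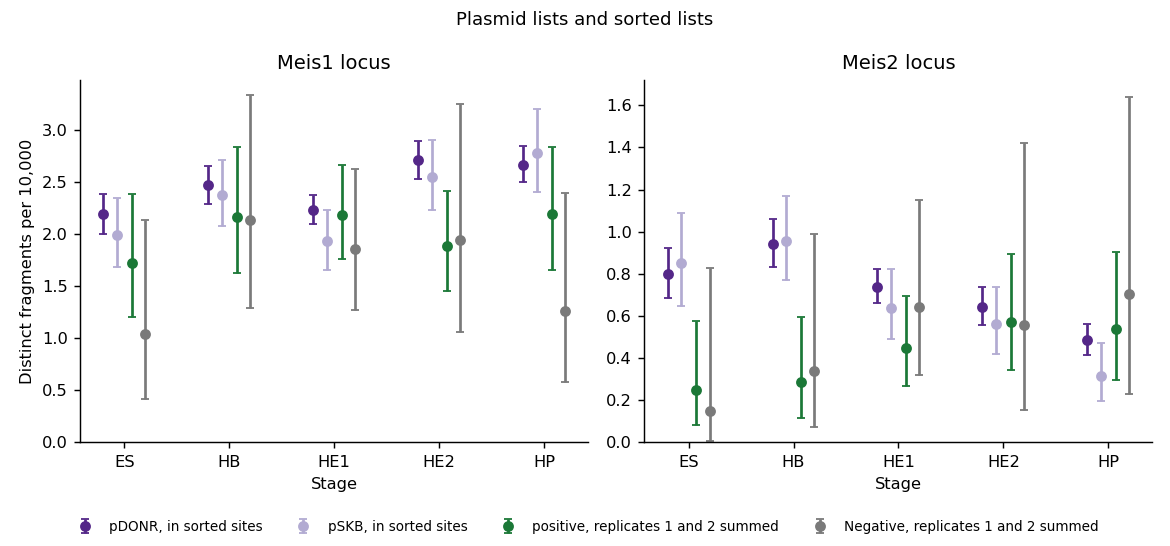
Distinct fragments per 10000 (vertical axis) at each stage for the Meis1 and Meis2 loci, in pDONR and pSKB fragments that overlap merged sites, and in positive and Negative cells of replicates 1 and 2 summed. Bars are 95% Clopper-Pearson intervals. Meis1 runs from 1.93 to 2.78 in plasmids and from 1.72 to 2.19 in positive cells, and Meis2 in plasmids stays below 1 throughout.

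Whereas the whole Meis1 window ran between 1.73 and 2.33 per 10000 over the plasmid lists, single sites ranged more widely and in different directions. Beside those named so far, the -55.5 kb and +55.5 kb sites were picked after their values were seen. The +48.6 kb site was at 0.353 fragments per 1000000 listed in pDONR of ES (0.0428 to 1.28), 4.34 at HB (2.86 to 6.31), 10.6 at HE1 (8.60 to 13), 21.5 at HE2 (18.1 to 25.4) and 25.4 at HP (21.8 to 29.5). From ES to HP this is 71.9-fold, with a counting interval of 19.6 to 599 because ES held 2 fragments. In pSKB the site went from 1.18 in ES to 28.4 in HP. The +93.9 kb site was at 0.53, 2.73, 3.62, 8.95 and 10.4 per 1000000 in pDONR, 19.6-fold higher in HP than in ES (6.43 to 97.1). Both sites thus stood highest in HP in either vector. In sorted positive cells of replicates 1 and 2, the +48.6 kb site was at 24.6 per 1000000 listed for HB, 32.8 for HE1 and 39.1 for HE2. It was at 23.1 for HP, from replicate 1 alone, where Negative cells were at 56.2. Sorted lists were limited to open chromatin peaks and plasmid lists were not, so the scales differ. In pDONR of HP, 3455897 of 6846347 listed fragments lay in merged sites. Over all replicates, Negative lists of HB gave 7 distinct fragments at this site with 97152 listed, against 6 with 288821 in positive sets. HE1 gave 1 with 181404 against 10 with 446820, and HE2 2 with 75547 against 14 with 353437, so positive cells were higher there.

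Other sites took the opposite course or peaked midway. The -55.5 kb site, chr11:19074348-19074523, within the noncoding gene 4933406G16Rik, was at 7.42 per 1000000 in pDONR of ES (5.35 to 10.0) and 0.643 in HB. No fragment was found in HE1 or HP. By its lower counting limit the site was at least 13.2-fold higher in ES than in HP, and its ES value was 16.9-fold above a floor of 3 fragments. Its only sorted fragments, 2 in all, came from positive cells of ES. The +55.5 kb site rested at 0.353 in ES and 0.321 in HB, stood at 6.11 in HE1 and 5.34 in HE2, and at 2.19 in HP. The +10.9 kb site was highest in HB, at 22.0 (18.5 to 26.0) against 12 in ES (9.33 to 15.2) and 9.17 in HE1 (7.28 to 11.4). The site at the start was at 4.95 in ES and 16.2 in HP.

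At least 4-fold higher values in HP than in ES, in both vectors, were found at 4 of the 23 Meis1 sites with 10 or more pDONR fragments in these stages (17.4%), and 4-fold lower values at 1 (4.35%). Over 61258 sites the same rule called 11.3% higher and 10.6% lower. From HB to HE1 it called 3 of 26 Meis1 sites higher, against 11.9% of all sites, and none lower, against 6.33%. There was 1 list per stage and vector, and pSKB was made from pDONR, so these differences have no replicate check.

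**Figure D5:**
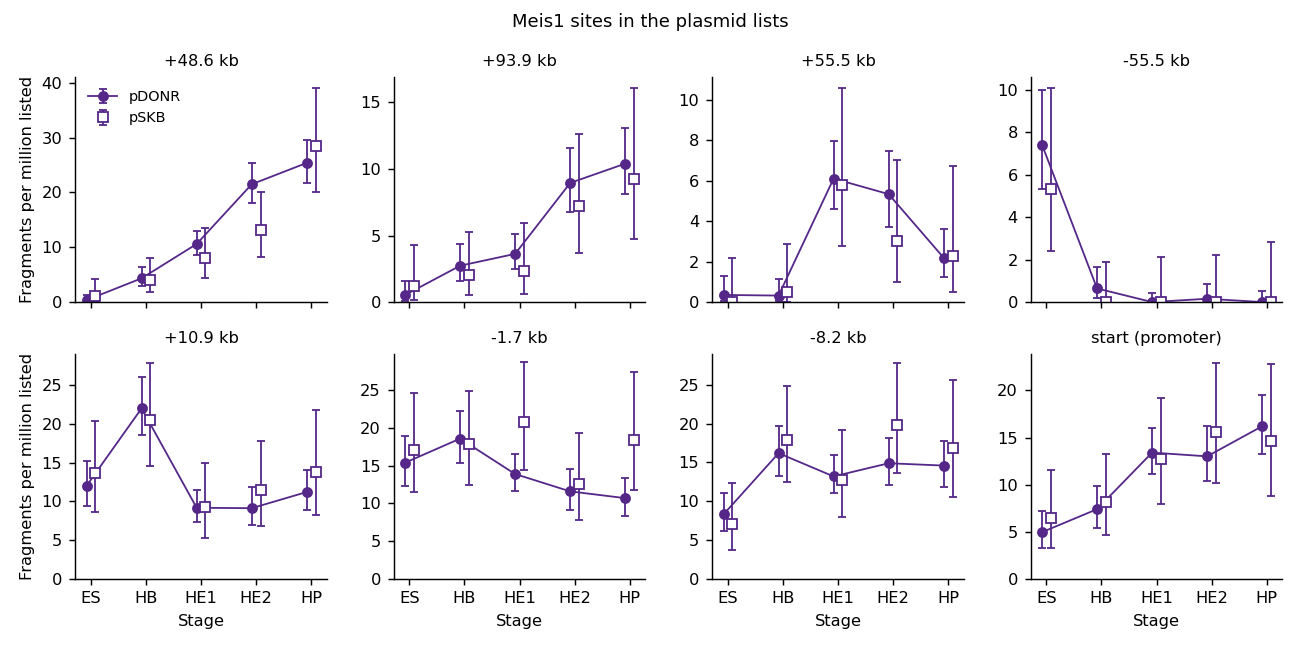
Fragments per 1000000 listed (vertical axis) at 8 Meis1 sites in the plasmid list of each stage (horizontal axis), with pDONR as filled circles joined by lines, pSKB as open squares and 95% Clopper-Pearson intervals as bars. The vertical scales differ. The +48.6 kb and +93.9 kb sites are highest in HP, the -55.5 kb site is at 7.42 in ES and below 1 afterwards, and the +10.9 kb site is highest in HB.

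Some sites were well represented in the plasmids of a stage but listed in none of its 19 sorted libraries. The site at the Meis1 start was at 13.4 per 1000000 in pDONR of HE1 and 13 in HE2, and absent from the sorted lists of both. Of all promoter sites at 10 per 1000000 or more, 3.01% were without a sorted fragment in HE1 and 3.23% in HE2. In HP, the -1.7 kb site at 10.7 per 1000000 and the +142.0 kb site at 11.1 were absent, as were 6.36% of distal sites. The sorted lists had been limited to open chromatin peaks and the plasmid lists had not, and the part of this filter was not tested. The sources used here do not give which stage's peaks each sorted list was held to, so a site with no fragment at a stage and a site with no called peak there cannot be told apart. In each stage, Meis1 sites with a sorted fragment had a higher median pDONR value, from 3.43 to 8.39 per 1000000, than the rest, from 0.482 to 1.18. Meis2 sites went the same way at ES, HB, HE1 and HP, but at HE2 those with a sorted fragment were at 1.41 and the rest at 1.73.

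Meis2 fragments were fewer at each step. Positive sets of replicates 1 to 5 held 0.20, 0.29, 0.343, 0 and 0 fragments per 10000 in ES, and 0.246, 0.328, 0, 0 and 0 in HB. They held 0.435, 0.456, 0, 0.754 and 3.77 in HE1. The last value was 1 fragment of 2656. In HE2 they held 0.64, 0.463, 0, 0 and 0, and in HP 0.517, 0.601, 0, 0 and 0. Summed over replicates 1 and 2 this gives 0.246 at ES (0.0798 to 0.574), 0.287 at HB (0.115 to 0.592), 0.445 at HE1 (0.268 to 0.695), 0.571 at HE2 (0.344 to 0.892) and 0.538 at HP (0.294 to 0.903). The order rises from ES to HE2, but all the intervals overlap.

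From HB to HE1 the positive Meis2 sets differed by 0.68 ± 0.32 on the log2 scale (limma, adjusted p = 0.996, unadjusted p = 0.036, a level that 4.19% of loci reached). Without the 4 HE1 libraries the difference was 0.50, without replicate 5 it was 0.29, and with replicates 1 and 2 alone it was 0.17. With distal fragments only it was 0.12. The other steps were -0.07 ± 0.17 for ES to HB, -0.57 ± 0.35 for HE1 to HE2 and 0.00 ± 0.23 for HE2 to HP. Positive and Negative cells differed by between -0.35 and 0.15 at the 4 stages with enough fragments, and high and Low gates by between 0.07 and 0.46 at 3 (limma, adjusted p from 0.988 to 1.00). In HE1, positive and Negative cells differed by -0.35, or -0.64 without the 4 libraries, and high and Low gates by 0.46, or -0.13 without replicate 5. HB in the first case, and HB and HP in the latter, had too few sets with a fragment to be tested.

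Meis2 had 17 sites, 14 distal and 3 promoter, and 9 of them rested on 1 fragment. The most listed of all, chr2:116066886-116067500, lies 2.1 kb upstream of the Meis2 start over the starts of the noncoding genes 2700033N17Rik and G630016G05Rik, and was picked after its values were seen. It held 20 of the 55 Meis2 fragments in 46 of 101 listings, in 12 positive sets of all 5 stages and 7 Negative lists. Its positive sets gave 2, 3, 1, 0 and 0 in ES, 1, 1, 0, 0 and 0 in HB, 1, 4, 0, 1 and 1 in HE1, 5, 0, 0, 0 and 0 in HE2 and 5, 1, 0, 0 and 0 in HP. By contrast, the site at the annotated start itself, chr2:116065753-116065966, held 1 fragment, from positive cells of HB, which was not among the plasmid fragments.

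The distal sites of Meis2 recurred in fewer sets than those of Meis1. The intronic +54.6 kb site, chr2:116010149-116010780, was positive in 5 sets, with 0 and 2 fragments in replicates 1 and 2 of HB, 1 and 1 in HE1 and 2 and 1 in HE2. The intronic +108.2 kb site, chr2:115956647-115957117, gave 1 and 1 in HE1 and 2 and 2 in HE2, beside 3 HE1 Negative lists with 1 each. The +4.5 kb site, chr2:116060274-116060854, overlaps coding sequence and gave 0 and 1 in HB, 1 and 0 in HE2 and 1 and 2 in HP, with no Negative fragment. No Meis2 site passed in 7 tests on 3 sites (limma, adjusted p from 0.991 to 1.00). Over all merged sites, limma called 0.00557% from ES to HB and 0% in the other comparisons.

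Across its whole window, Meis2 stood at 11.3 to 21.2 per 10000 plasmid fragments of its own chromosome. For Meis1 that range was 15.7 to 21.2, so the 2 loci overlapped on this scale. In the plasmid lists limited to merged sites, Meis2 ran from 0.797 per 10000 in pDONR of ES (0.684 to 0.923) and 0.943 in HB to 0.483 in HP (0.413 to 0.562), and in pSKB from 0.849 in ES to 0.313 in HP. In ES and HB, the summed positive values of replicates 1 and 2 and their intervals lay below those of pDONR. In HP the intervals overlapped. At single sites, the +44.3 kb site, also picked after its values were seen, was at 4.95 per 1000000 in ES and 1.17 in HP, 4.24-fold lower (1.88 to 10.8), and it was the only one of 11 Meis2 sites called at least 4-fold lower in both vectors (9.09%, against 10.6% of all sites). From HB to HE1, 3 of 16 Meis2 sites were at least 4-fold higher in both vectors (18.8%, against 11.9% of all sites).

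At the edges of the windows, the outermost Meis1 sites inside were chr11:18821539-18821673 with 2 fragments and chr11:19112331-19112610 with 3, and the nearest outside were at +336.9 and -152.8 kb with 1 fragment each. For Meis2, the outermost sites inside were chr2:115780515-115780663 and chr2:116075527-116075744 with 1 fragment each, and those outside lay at +317.3 and -293.2 kb, also with 1 each. With a window of 50 kb on each side neither member locus passed, as with 100 kb.

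Other genes of the family were given as a frame. Meis3 is the third MEIS gene, Pbx2, Pbx3 and Pbx4 encode PBX partners, and Pknox1 and Pknox2 encode the related PREP proteins. These 6 were tested in all 14 comparisons, and 0 passed in either direction (limma, adjusted p from 0.988 to 1.00, nor any by edgeR). Of all loci, limma called 0% in each of these comparisons and edgeR at most 3.00%, so the 6 genes do not stand out by this. Their listings ran from 545 for Pbx3 to 1396 for Pbx4, but the windows of Meis3, Pbx2, Pbx4 and Pknox1 hold 7 to 13 protein-coding genes. Pbx2 held 67.4 distal fragments per 100 kb and Pbx3 9.21, against 72.5 for Meis1. Summed over all positive sets, Meis1 was at 2.05 per 10000, Meis2 at 0.419 and Pbx3 at 2.21. The lowest unadjusted p of these genes, 0.0372, was that of Pbx2 from HE1 to HE2, at -1.31 ± 0.62.

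Across the 10 positive sets of replicates 1 and 2, the loci most like Meis1 among 17578 were Cnksr1, Prss56 and Catsper4, with Pearson r of 0.930, 0.926 and 0.919 on the log2 scale. Those most like Meis2 were Dhrs7c, Ifitm10 and Hs6st1, with 0.981, 0.977 and 0.957. The median r over all loci tested was -0.0279 for Meis1 and -0.0864 for Meis2. The points share libraries and list lengths, so these values are a description of 10 sets only.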

How the data were processed

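Per the labels and the methods of the study, reads were trimmed with Trim Galore, mapped to mm10 with Bowtie2, handled with SAMtools, bedtools and HOMER, freed of duplicates, and filtered against control PCR, plasmid fragments and open chromatin peaks. The authors deposited sorted lists as intervals without read numbers, and plasmid and control lists with read counts per fragment. Plasmid starts were moved by 1 base to the scale of the sorted lists. After that, 82.9% of Meis1 and 85.1% of Meis2 listings equalled a plasmid fragment.

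Groups were taken from the sample titles. Distinct fragments per set were counted over loci and merged sites (overlap of at least 1 bp). Those found in 4 or more of the 10 sets entering a comparison were fitted by limma 3.58.1 (lmFit, eBayes with trend, R 4.3.3) on log2(fragments per 10000 + 1), two-sided, with Benjamini-Hochberg adjustment over all of them. EdgeR 4.0.16 on fragment numbers was an alternative. The fits were also run on simulated data, but the outcome is not given here, so the size of change they can detect is not stated. P-values describe the spread between these sets. Named sites were those at a start, the 3 distal sites with most positive sets and any site past the threshold. Sites over elements the study listed, the site nearest to 45 kb on the gene side and the outermost sites were also named. Exceptions are marked. Members, lists and rules were chosen with earlier results of these data known. Replicate numbers counted as pairing where the deviations of all 5 same-numbered pairs correlated above 0.1. That held in 2 of 14 comparisons, ES to HB (0.141 to 0.287) and high against Low in ES (0.14 to 0.331). Sequences are from the RefSeq copy of GRCm38.p6. A further gene of the family list is not reported here.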

Additional observations from a re-analysis of the deposited data

Results flagged for a closer look

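In 9 of 40 groups of 5 sets, the highest set stood apart from the others by Dixon's ratio. Chance gives this in about 1 in 20 groups of continuous values, a rate that does not hold here, since a group with 1 list above 0 always stands apart. Meis1 in Low lists of HE2 reached 9.46 per 10000 in replicate 5, from 1 fragment of 1057, against at most 1.90 in the others. Meis2 in HE1 reached 8.55 in Negative cells, 3.77 in positive cells and 5.96 in high gates, each from 1 fragment of replicate 5. The other 5 groups held Meis2 fragments in 1 list only, at 0.227 per 10000 in Negative cells of ES, 0.64 in Negative cells of HB, 0.68 in Low of ES, 0.298 in Low of HB and 0.64 in Low of HP. These lists held between 1 and 3 Meis2 fragments.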

How the results depend on the processing

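No member passed the threshold in any of 359 alternative fits to 25 locus results (lowest adjusted p 0.381), and 337 kept the direction. The main limma fits called 0 of all loci over all comparisons, whereas edgeR called 1476. A lack of calls in the limma alternatives is thus no sign of stability. With replicates 1 and 2 only, chosen after seeing the data, Meis1 turned to 0.01 (positive against Negative, HB), 0.35 (HE1), -0.04 (HE2), 0.01 (HB to HE1), -0.15 (HE1 to HE2), -0.15 (high against Low, ES) and 0.09 (HE2), and Meis2 to 0.05 (ES to HB), 0.10 (HE1 to HE2) and -0.13 (high against Low, ES). By edgeR, Meis1 turned to 0.12 (positive against Negative, HE1), -0.12 (HE1 to HE2) and 0.20 (high against Low, HE2), and Meis2 to 0.19 (HE1 to HE2) and -0.61 (high against Low, ES). Meis2 turned to 0.09 with distal fragments (HE1 to HE2) and to -0.02 with 50 kb (positive against Negative, HE2). The cause was not tested. Leaving out a replicate gave -0.09 to 0.70 for Meis1 from HE1 to HE2, -0.80 to 0.49 and -0.86 to 0.62 for high against Low in HE2 and HP, and for Meis2 -0.08 to 0.02 from ES to HB and -0.13 to 0.80 for high against Low in HE1. Replicate 5 decided the sign in HE1 to HE2 of Meis1 (-0.09 without it), in high against Low in HE2 of Meis1 (0.49) and in HE1 of Meis2 (-0.13), replicate 4 that of Meis1 in HP (0.62), and replicate 3 that of Meis2 from ES to HB (0.02). The replicate block, which was backed by the pairing check in 2 comparisons, changed no call (25 results, lowest adjusted p 0.772, 0 loci called). Plasmid values by reads ran from 1.73 to 2.22 per 10000 for Meis1 and 0.873 to 1.53 for Meis2. Replicates 3 to 5 list too few fragments to place loci at about 2 per 10000.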
